A study of Mus musculus with 3 samples.

Results

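Csf1 and the 5 receptor genes Csf1r, Csf2ra, Csf2rb, Csf3r and Flt3 were followed in single-cell RNA-seq of injured mouse liver. These 6 of the 19091 genes in the deposited count matrices were chosen by name, as the growth factor of the mononuclear phagocyte lineage and the receptors for the myeloid colony-stimulating factors and for Flt3 ligand. Their unique molecular identifiers (UMIs, each standing for 1 captured transcript molecule) were summed by library and by cell class over all barcodes with at least 200 detected genes, called cells here, and are given per 1000000 UMIs of the library or class (CPM).

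The study asked how wounded organs begin repair, and injured the liver of adult C57BL/6 mice by irreversible electroporation (IRE), which kills cells with electric pulses. Drop-seq, in which droplets pair a cell with a barcoded bead that captures the 3′ ends of its transcripts, gave 1 library for each of 3 groups. In the IRE groups a lobe received 8 pulses of 50 ms at 75 V by the labels, where the study's methods give a lower voltage, and a 4 mm punch of the treated area was taken 1 day after injury (IRE 1 dpi) or 7 days after injury (IRE 7 dpi). The control mice had sham surgery and were killed after 1 day, and the matching uninjured area was punched. The labels name no transgene or mutant allele in any group. Each library pooled punches of 3 livers, so that animals could not be separated, no value had a replicate, and no test of 1 condition against another was possible. Each level is therefore given with a 95% interval that covers counting error only, and differences between animals are not in it.

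The receptors belong to 2 families. Csf1r and Flt3 are receptor tyrosine kinases. Csf1r binds Csf1 and interleukin 34 and is needed for the survival of most tissue macrophages, Kupffer cells of the liver included, while Flt3 binds Flt3 ligand and drives the formation of dendritic cells. The others are cytokine receptors without kinase activity that signal through bound JAK kinases and STAT factors: Csf3r is the granulocyte colony-stimulating factor receptor of the neutrophil lineage, Csf2ra is the ligand-specific chain of the GM-CSF receptor, and Csf2rb is the signalling chain that GM-CSF, interleukin 3 and interleukin 5 share.

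The libraries held 10386 control, 9253 IRE 1 dpi and 5624 IRE 7 dpi cells, 25263 in all, with median depths of 595, 509 and 456.5 UMIs. At 8013800, 6107866 and 3058967 UMIs, a single UMI was worth 0.125, 0.164 and 0.327 CPM, and a count of 0 allowed a level of up to 0.374, 0.491 and 0.981 CPM. Mitochondrial transcripts took 20.5%, 21.7% and 4.10% of these UMIs. Cells were sorted into 18 classes by fixed marker genes that excluded the 6 members. 37.2%, 27.8% and 33.0% of the cells remained ungated. The makeup of the libraries did not follow the order of the labels. The library labelled IRE 1 dpi held 25 neutrophils against 220 in the control library and 1510 in the IRE 7 dpi library, and 33 classical monocytes against 999 and 1102. The control library held 500 cells gated by the macrophage genes Arg1, Ccl2, Ccl7, Gpnmb, Trem2 and Mmp12, called Arg1 or Gpnmb cells below, and 482 mesenchymal cells, against 9 and 13 in the library labelled IRE 1 dpi. Hepatocytes, the main cell of the liver, numbered 18, 258 and 0. The cause was not tested. An exchange of library labels was not tested either and would change every ratio to control. The library names below are those of the labels. Each pair of libraries shared 44 to 149 cell barcodes, where barcodes drawn at random would share 3.10 to 5.73. Leaving the shared barcodes out moved 1 ratio between libraries by more than its counting interval, that of Csf1r between IRE 7 dpi and IRE 1 dpi, from 0.590 to 0.541.

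Promoter sequence from the RefSeq table of mouse build GRCm38.p6 is shown for Csf1, Csf2ra and Csf3r, which were among the members that stood higher at 7 dpi. Each run is the 250 bases before the transcription start, 5′ to 3′ on the strand of the gene. They lie at chr3:107760470-107760719 (minus strand), chr19:61228419-61228668 (minus strand) and chr4:126024409-126024658 (plus strand). Capitals mark letters matching 1 of 3 motifs searched on both strands: GAGGAA, the core bound by the myeloid factor PU.1; GGNNTTTCC, a short form of the NF-kB motif; and TTGCNNAA, a short form of the C/EBP motif.
Csf1: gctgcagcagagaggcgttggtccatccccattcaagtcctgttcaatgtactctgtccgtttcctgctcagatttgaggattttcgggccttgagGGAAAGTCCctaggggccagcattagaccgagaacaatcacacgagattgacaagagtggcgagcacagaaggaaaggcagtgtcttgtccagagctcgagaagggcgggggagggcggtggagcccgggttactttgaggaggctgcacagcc
Csf2ra: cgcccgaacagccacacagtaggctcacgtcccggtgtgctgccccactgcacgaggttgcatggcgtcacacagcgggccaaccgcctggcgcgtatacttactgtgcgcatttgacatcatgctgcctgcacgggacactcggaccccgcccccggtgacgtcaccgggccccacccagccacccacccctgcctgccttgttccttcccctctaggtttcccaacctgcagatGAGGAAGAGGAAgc
Csf3r: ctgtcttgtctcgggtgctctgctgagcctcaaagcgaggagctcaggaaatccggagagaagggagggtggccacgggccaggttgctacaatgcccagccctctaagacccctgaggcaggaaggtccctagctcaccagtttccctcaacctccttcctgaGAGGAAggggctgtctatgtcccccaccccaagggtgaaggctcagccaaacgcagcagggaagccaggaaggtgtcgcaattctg
The Csf1 window held an NF-kB-like match, GGAAAGTCC, 154 to 146 bases before the start, read on the opposite strand. The Csf2ra window held GAGGAA side by side at 14 to 9 and at 8 to 3 bases before the start, and the Csf3r window held it once, at 86 to 81 bases. Of 32851 mouse promoter windows of this length, 23.3% held GAGGAA, 4.93% the NF-kB-like letters and 9.56% the C/EBP-like letters. None of the 3 motifs matched in the Flt3 window (chr5:147400490-147400739, minus strand). A match is a string of letters and not a measured binding site.

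Summed over all cells of a library, 4 of the 6 genes were highest at 7 dpi and 2 were lowest there. In such sums a change in the number of cells of a type and a change in RNA per cell cannot be told apart, and the class levels further on are given for that reason. Transcripts were counted from their 3′ ends, so levels are compared between libraries or classes for 1 gene and not between genes.

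Csf1, the ligand, had 266 UMIs in the control library, 257 at 1 dpi and 276 at 7 dpi. Scaled to depth these were 33.2, 42.1 and 90.2 CPM. The 7 dpi level was 2.72-fold the control level (95% interval 2.29 to 3.23) and 2.14-fold the 1 dpi level (1.80 to 2.55), while 1 dpi and control differed by 1.27-fold (1.06 to 1.51). Csf1r, its receptor, ran the other way at 7 dpi. It stood at 308 CPM in the control (2468 UMIs), 380.2 at 1 dpi (2322 UMIs) and 224 at 7 dpi (686 UMIs), so that 7 dpi was 0.728 of the control (0.668 to 0.793) and 0.590 of 1 dpi (0.541 to 0.643). For every 100 Csf1r UMIs the control library had 10.8 Csf1 UMIs (9.46 to 12.2), the 1 dpi library 11.1 (9.69 to 12.6) and the 7 dpi library 40.2 (34.9 to 46.3). This count is no ratio of molecules, since each gene may be captured at its own rate, but its change between libraries is free of that rate.

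The GM-CSF receptor chains and the G-CSF receptor shared an order, with 1 dpi lowest and 7 dpi highest. Csf2ra stood at 103 CPM in the control (823 UMIs), 67.8 at 1 dpi (414 UMIs; 61.4 to 74.6) and 349 at 7 dpi (1067 UMIs; 328 to 370.4). Csf2rb stood at 116 (929 UMIs; 109 to 124), 48.3 (295 UMIs; 42.9 to 54.1) and 274 (839 UMIs; 256 to 293). Csf3r stood at 64.9 (520 UMIs; 59.4 to 70.7), 27.2 (166 UMIs; 23.2 to 31.6) and 330.2 (1010 UMIs; 310.1 to 351). None of these intervals overlapped within a gene. Against the control, 7 dpi was 3.40-fold higher for Csf2ra (3.10 to 3.72), 2.37-fold for Csf2rb (2.15 to 2.60) and 5.09-fold for Csf3r (4.57 to 5.67). Against 1 dpi the folds were 5.15 (4.59 to 5.78), 5.68 (4.97 to 6.51) and 12.1 (10.3 to 14.4). The fold for Csf2rb against the control went below 2, to 1.93 in cells with at least 400 genes and 1.96 with mitochondrial UMIs left out.

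Flt3 was the sparsest member. It had 108 UMIs in the control (13.5 CPM, 11.1 to 16.3), 76 at 1 dpi (12.4, 9.80 to 15.6) and 21 at 7 dpi (6.87, 4.25 to 10.5). The ratio of 7 dpi to control was 0.509 (0.303 to 0.818), and that of 1 dpi to control was 0.923 (0.679 to 1.25), an interval that holds 1.

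Read against all genes with at least 50 UMIs in the pair of libraries, the members stood as follows, a gene being counted when it was at least 2-fold apart. Between 1 dpi and control, 2 of 6 members were lower, Csf2rb (0.417) and Csf3r (0.419), where 5.86% of 11357 genes were lower and 12.2% higher. Between 7 dpi and control, 4 of 6 were higher (Csf1, Csf2ra, Csf2rb and Csf3r), where 8.79% of 10227 genes were higher and 21.8% lower. Between 7 dpi and 1 dpi those 4 were again higher, where 11.6% of 10271 genes were higher and 27.8% lower. The comparisons share libraries and so do not count as separate evidence. With mitochondrial UMIs left out, Csf1 was 1.75-fold higher at 7 dpi than at 1 dpi and no longer counted, and Csf1r stood at 0.481 and was then counted as lower.

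**Figure D1:**
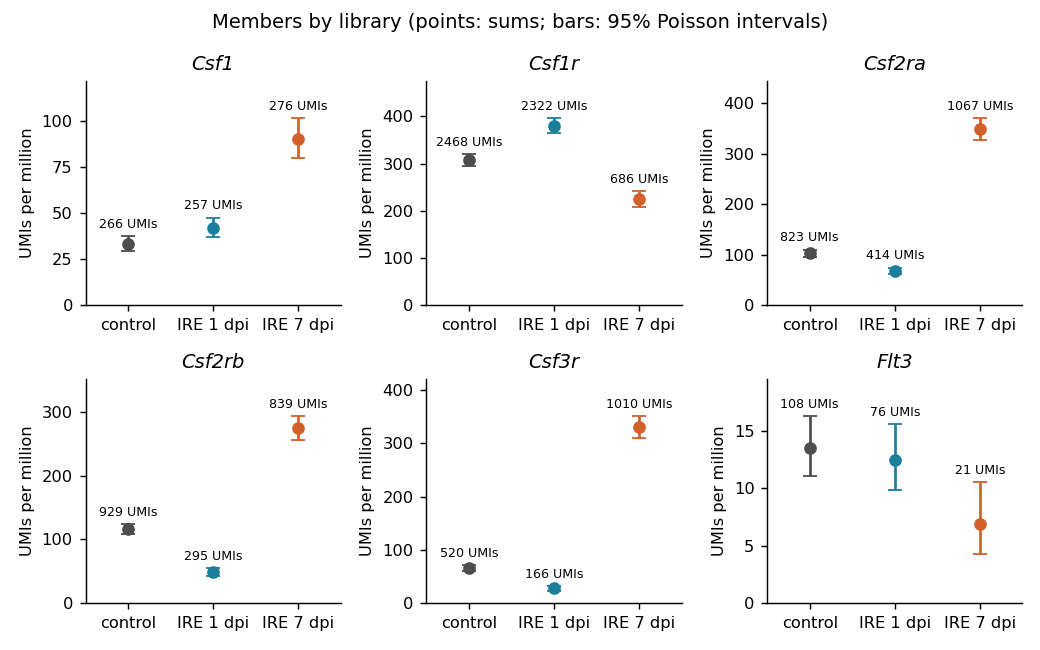
Level in CPM of each of the 6 genes in the control, IRE 1 dpi and IRE 7 dpi libraries, on linear axes that start at 0. Points are sums over all cells of 1 library and bars are 95% Poisson intervals for counting error. Csf1, Csf2ra, Csf2rb and Csf3r stand highest at 7 dpi (90.2, 349, 274 and 330.2 CPM), and Csf1r and Flt3 lowest (224 and 6.87).

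The other colony-stimulating factors were near or under the limit of detection. Csf2, which encodes GM-CSF, had 2, 1 and 0 UMIs in the 3 libraries, and Csf3, which encodes G-CSF, had 0, 0 and 1. Il34, the second ligand of Csf1r, had 12, 3 and 1. Flt3l, which encodes the Flt3 ligand, had 119 UMIs in the control (14.8 CPM), 87 at 1 dpi (14.2) and 26 at 7 dpi (8.50). A level of these cytokines that differed between libraries was thus not detectable for Csf2, Csf3 and Il34 at this depth.

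Of 35 other genes of these pathways, 31 passed 50 UMIs in each pair of libraries. At 7 dpi 6 were at least 2-fold above the control and 2 were below, where 8.79% of all genes tested were higher and 21.8% lower. The median ratio of the 31 genes was 1.33 against 0.862 over all genes tested. Csf2rb2, the mouse duplicate of Csf2rb that serves interleukin 3, followed Csf2rb at 28.1, 13.1 and 62.1 CPM. The ratio of 7 dpi to control was 2.21 for Csf2rb2 (1.81 to 2.70). Of the 50-base words of the longest coding Csf2rb transcript in GENCODE, 18.4% were found in coding transcripts of Csf2rb2, and 19.0% the other way. In the last 1000 bases, where most 3′ reads fall, 0 of 951 words were found either way. Of 9 negative regulators of these receptors in the list, 4 were at least 2-fold higher and 0 lower. Socs3 was 4.03-fold the control at 7 dpi (345 against 224 UMIs; 3.40 to 4.80), Cish 3.08-fold (2.38 to 3.98), Socs1 2.73-fold (2.03 to 3.69) and Dok2, a docking protein that dampens kinase signalling, 2.01-fold. The other 5 ran from 0.544 for Socs2 (0.406 to 0.718) and 0.553 for Cblb (0.360 to 0.825), both below the control, to 1.55 for Ptpn6. Tyrobp, a signalling adaptor of myeloid cells, was 2.17-fold the control. Leaving mitochondrial UMIs out moves every log2 ratio of 7 dpi to control by -0.27. That takes Csf2rb2, Dok2 and Tyrobp below 2-fold, and takes other genes, such as Socs2 and Cblb, to at least 2-fold lower. The stem cell factor Kitl and its receptor Kit, relatives of Csf1 and Csf1r, were lower at 7 dpi, at 0.198 of the control for Kitl (19 against 251 UMIs) and 0.187 for Kit (11 against 154).

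Between 1 dpi and control 1 gene of the list was at least 2-fold higher and 2 were lower, where 12.2% of all genes tested were higher and 5.86% lower. Kit was 2.16-fold higher (253 against 154 UMIs), Csf2rb2 stood at 0.467 and Socs3 at 0.433. The median of the list was 0.818 against 1.03 over all genes. Between 7 dpi and 1 dpi the list had a median of 1.71 against 0.852 over all genes. Of its genes 12 were higher and 2 lower, where 11.6% of all genes tested were higher and 27.8% lower. Among the higher ones were Csf2rb2 (4.74), the kinase Syk (2.37), Stat3 (2.17), the adaptors Gab2 (2.49) and Tyrobp (3.34), the lipid kinase subunit Pik3cg (2.96), and the inhibitors Cish (2.39), Socs1 (2.53), Socs3 (9.31), Ptpn6 (2.06) and Dok2 (2.39). Kitl (0.162) and Kit (0.0868) were the lower ones. Without mitochondrial UMIs every log2 ratio of 7 dpi to 1 dpi moves by -0.29. That takes Syk, Stat3, Cish, Ptpn6 and Dok2 below 2-fold, and takes other genes, such as Socs2, to at least 2-fold lower. Il3ra, the interleukin 3 receptor chain that pairs with Csf2rb, had 77, 39 and 39 UMIs and passed 2-fold in no comparison.

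The cell classes gave each gene its own place, and for Csf1 that place changed between libraries. In the control library Csf1 was highest in mesenchymal cells, at 107 CPM (57 UMIs in 482 cells), and in endothelial cells, at 90.6 (88 UMIs in 1456 cells). These neighbours in the order did not differ beyond counting error, with a ratio of 1.18 (0.831 to 1.67). Myeloid classes were lower. Kupffer cells, the resident macrophages of the liver sinusoids, stood at 22.8 (36 UMIs), classical monocytes at 23.4 (16 UMIs), neutrophils at 26.3 (4 UMIs; 7.16 to 67.2) and the cells with Arg1 or Gpnmb markers at 4.81 (3 UMIs). No Csf1 UMI was seen in the 146 B cells, 130 NK cells or 260 type 1 dendritic cells (cDC1).

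At 1 dpi endothelial cells led among the classes with over 100 cells, with 65.8 CPM in 3207 cells (54.9 to 78.3), 0.727 of their control level (0.550 to 0.965). The interval of that ratio held 1 under 4 alternatives, which gave 0.756 to 0.927. Kupffer cells stood at 30.5 (54 UMIs in 2643 cells). The 25 neutrophils of this library had 1 Csf1 UMI and carried transcripts of other cells, with the Kupffer cell gene Clec4f at 844 CPM among them against 204 and 27.6 in the neutrophils of the control and 7 dpi libraries.

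At 7 dpi neutrophils led. They held 131 of the 276 Csf1 UMIs, 172 CPM (144 to 204) in 1510 cells. This was 6.56-fold the level of control neutrophils, with a wide interval (2.5 to 24.4) because those had 4 UMIs. Within the 7 dpi library the neutrophil level was 2.73-fold that of all other cells (2.14 to 3.48), whereas in the control it was 0.788-fold (0.213 to 2.04). Endothelial cells were next at 123, but on 5 UMIs in 68 cells, and did not differ from neutrophils beyond counting error (ratio 1.40, 0.585 to 4.38). Classical monocytes stood at 54.3 (37 UMIs), 2.32-fold their control level (1.26 to 4.47), an interval that came to hold 1 in cells with at least 400 genes (1.67, 0.738 to 4.02) or at most 20% mitochondrial UMIs (1.74, 0.872 to 3.79). The Arg1 or Gpnmb cells stood at 47.8 (20 UMIs), 9.93-fold (2.95 to 52.2) on 3 control UMIs. For Kupffer cells (7 UMIs at 7 dpi) the ratio of 2.31 had an interval that holds 1 (0.868 to 5.27). Neutrophil markers were also found in these classes. They went from 0.0357% of UMIs in the control to 0.249% at 7 dpi in classical monocytes. In the Arg1 or Gpnmb cells they went from 0.0232% to 0.191%, against 2.01% in 7 dpi neutrophils. Their part in the higher Csf1 of these classes was not tested. The neutrophil ratio depended on how neutrophils were defined. It was 2.74 when S100a8 and S100a9 were added to the markers. In cells with at least 400 genes control neutrophils had no Csf1 UMI, and the ratio to the floor of 3 counts was 2.28.

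Neutrophils thus held 1.50% of the Csf1 UMIs of the control library, 0.389% at 1 dpi and 47.5% at 7 dpi. Their shares of the UMIs of all genes were 1.90%, 0.252% and 24.9%. Endothelial cells went from 33.1% and 49.8% to 1.81%, and mesenchymal, mesothelial, bile duct and hepatocyte cells together from 21.8% and 5.06% to 0.362%. Monocytes and macrophages held 21.4%, 21.8% and 23.9%. Among single cells, 7.22% of 7 dpi neutrophils had a Csf1 UMI (5.96 to 8.64%) against 1.82% of control neutrophils. After thinning each cell to 300 UMIs, which left out 90 and 2 shallower cells, the shares were 5.42% and 0.459%. For comparison, T cells gave 1.75% at 7 dpi, which is 1 of 57 cells, and 2.08% after thinning. Their median depth was 476 UMIs against 439 in neutrophils.

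**Figure D2:**
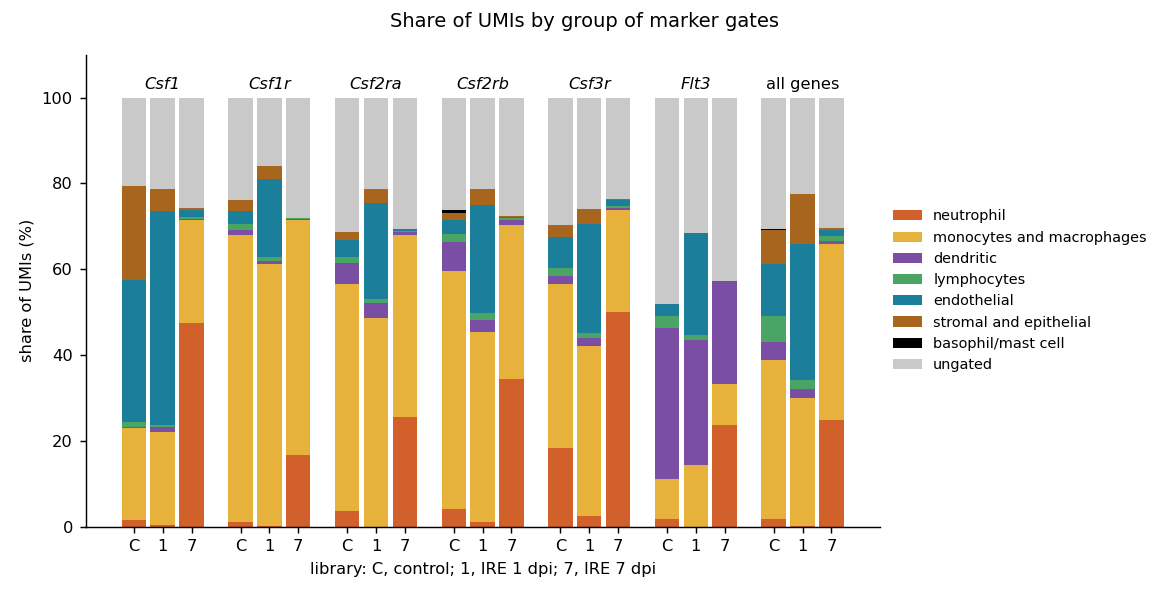
Share of each gene's UMIs held by groups of cell classes, as stacked bars that add to 100% for each library. Csf1 UMIs move from endothelial cells (33.1% in the control and 49.8% at 1 dpi) to neutrophils (47.5% at 7 dpi), while Csf3r UMIs in neutrophils make up 18.5%, 2.41% and 50.0%.

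All cells were also sorted by the number of neutrophil markers they held. The gate uses the same 9 markers on the same cells, so this shows the grading behind it and is no separate evidence. At 7 dpi Csf1 stood at 54.4 CPM in the 1500 cells with no marker, 75.7 with 1, 97.6 with 2, 129.5 with 3 and 155 with 4 or more (112 to 209; 441 cells). In the control library the corresponding values were 29.8, 54.0, 32.6, 12.2 and 28.1, with no order. Csf3r climbed in both libraries, from 47.2 to 534 in the control and from 169 to 632 at 7 dpi. Csf2rb climbed less steeply, from 109.7 to 225 in the control and from 216 to 354 at 7 dpi. Csf2ra hardly moved at 7 dpi, between 322 and 393, and was 211 against 100.2 at the ends in the control. This sorting was chosen after the values by class had been seen.

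**Figure D3:**
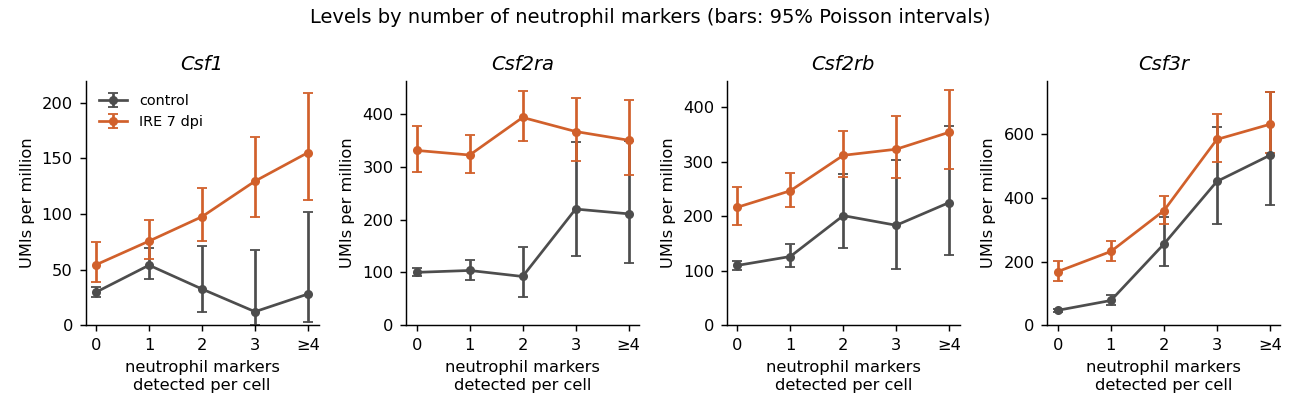
Level in CPM of Csf1, Csf3r, Csf2rb and Csf2ra in cells grouped by the number of neutrophil markers detected, for the control and 7 dpi libraries. Points are sums over cells, joined by lines, and bars are 95% Poisson intervals. Csf1 runs from 54.4 to 155 CPM at 7 dpi and from 29.8 to 28.1 in the control, while Csf3r climbs in both.

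Within the 7 dpi neutrophils Csf1 was unevenly spread. The 371 cells with Ifit1, Ifit3 or Isg15, genes induced by interferon, had 247 CPM against 147 in the other 1139 (ratio 1.68, 1.15 to 2.43). The 221 cells with Camp, Ltf or Ngp, granule genes of immature neutrophils, had 109 against 185 (0.591, 0.313 to 1.03), and the 973 cells with Cxcl3 or Ccl4 had 185 against 146 (1.26, 0.851 to 1.91). Both of the latter intervals hold 1. Csf3r was 771 against 627 in the interferon-induced split (1.23, 1.01 to 1.49). In the control neutrophils Csf3r stood at 349 in cells with Camp, Ltf or Ngp and at 740.5 in the others (0.472, 0.253 to 0.825).

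Csf1r was high in Kupffer cells in every library. The Arg1 or Gpnmb cells, also gated by macrophage genes, were not above the level of the whole library. They had 237 against 308 CPM in the control and 208 against 224 at 7 dpi. Kupffer cells had the highest level of the classes with over 100 cells, 808 CPM in the control (764 to 853; 1275 UMIs), 793 at 1 dpi (752 to 835; 1406 UMIs) and 610.0 at 7 dpi (484 to 758; 81 UMIs). The 1 dpi and control levels did not differ beyond counting error (0.982, 0.909 to 1.06), and 7 dpi stood at 0.755 of control (0.596 to 0.946). Under 2 alternatives, without barcodes holding 2 markers of a second class (0.718, 0.452 to 1.09) and with S100a8 and S100a9 as neutrophil markers (0.797, 0.610 to 1.03), the interval held 1. Kupffer cells were 4.36, 3.75 and 2.95 times the level of the other cells of their library. Kupffer cells numbered 1626, 2643 and 173, lowest in the library with the lowest Csf1r overall.

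Non-classical monocytes, the patrolling monocytes, followed at 541 in the control (36 UMIs) and 562 at 7 dpi (10 UMIs). Classical monocytes had 282 and 290.4, a ratio of 1.03 (0.840 to 1.26), and the Arg1 or Gpnmb cells 237 and 208, a ratio of 0.876 (0.664 to 1.15). Neutrophils had 171 and 151 (0.886, 0.575 to 1.41). No change in these 3 classes between control and 7 dpi was detectable, and their intervals run from 0.575 to 1.41.

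Endothelial cells were the only compared class whose Csf1r interval left out 1 between 1 dpi and control. They had 75.1 CPM in the control (73 UMIs), 217 at 1 dpi (422 UMIs) and no UMI in 68 cells at 7 dpi, where the floor of 3 counts is 73.8. The ratio of 1 dpi to control was 2.89 (2.25 to 3.76) and 1.92 in cells with at most 20% mitochondrial UMIs. B cells (2.17, 0.816 to 5.92) and T cells (1.98, 0.866 to 4.25) also had ratios above 1, with intervals that hold 1. At 1 dpi B cells stood at 216 CPM on 11 UMIs. Endothelial cells did not differ from them beyond counting error (1.00, 0.555 to 2.03). All 7 Kupffer markers were also detected in the endothelial gate, where they summed to 0.0674% of UMIs in the control and 0.195% at 1 dpi, against 1.38% in the Kupffer gate of both libraries. Barcodes under 200 genes, not counted as cells, also had more Csf1r at 1 dpi, with 131 CPM in the control and 270 at 1 dpi. The part of these markers and barcodes in the result was not tested. By cell, 48.5%, 36.0% and 33.0% of Kupffer cells had a Csf1r UMI, and 21.2%, 19.5% and 19.6% after thinning to 300 UMIs. T cells, which should lack it, gave 5.98%, 8.40% and 1.75% before thinning and 2.56%, 7.83% and 2.08% after it, at median depths of 643, 499 and 476 UMIs against 790.0, 546 and 546 in Kupffer cells.

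**Figure D4:**
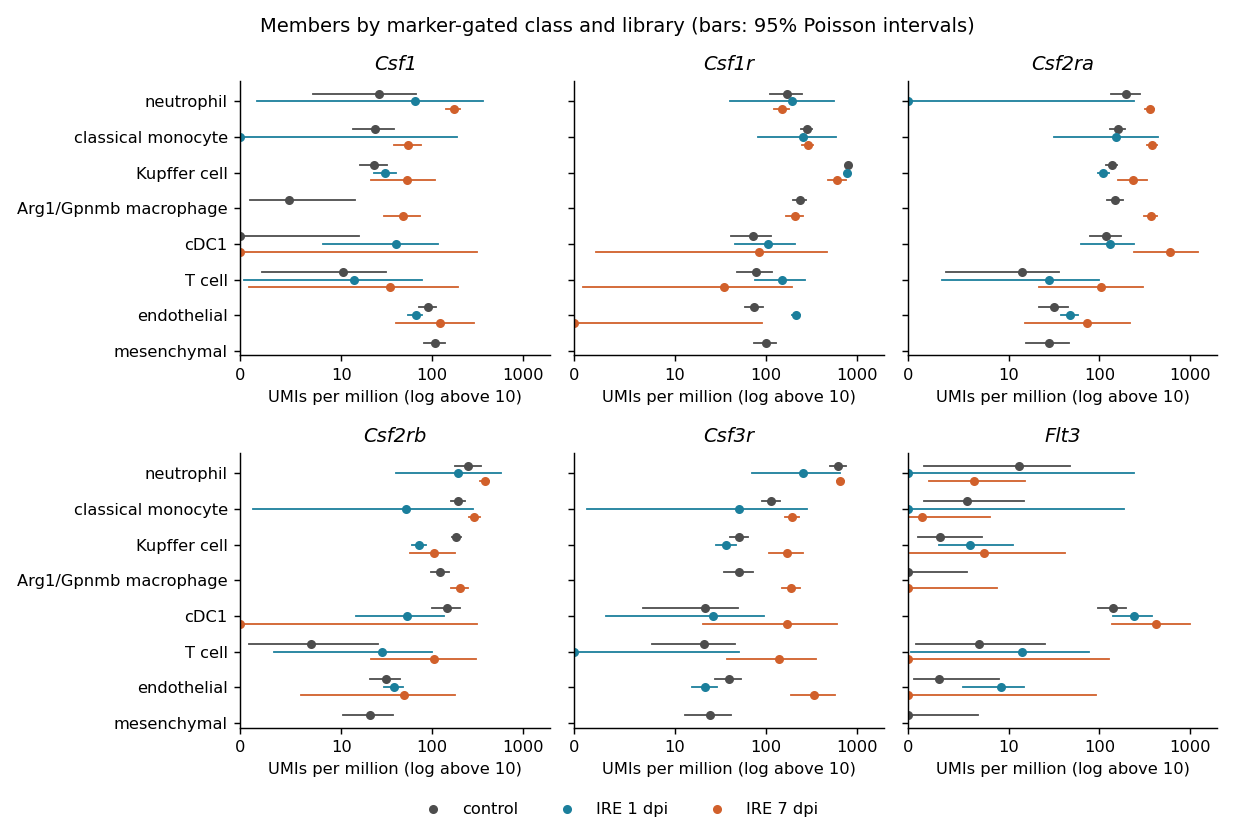
Level in CPM of each gene in 8 cell classes, by library, on an axis that is logarithmic above 10. Points are class sums in 1 library, with 95% Poisson intervals, and classes under 20 cells are left out. Csf1r is highest in Kupffer cells (808, 793 and 610.0), Csf3r in neutrophils (630.3, 260 and 664) and Flt3 in cDC1 (140, 238 and 426), while Csf1 in neutrophils goes from 26.3 to 172.

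Csf2ra was spread over the myeloid classes and stood higher in most of them at 7 dpi. In the control it stood at 286 in non-classical monocytes (19 UMIs), 197 in neutrophils (30 UMIs), 159 in classical monocytes (109 UMIs), 149 in the Arg1 or Gpnmb cells (93 UMIs) and 136 in Kupffer cells (215 UMIs). Neighbours in this order did not differ beyond counting error. At 7 dpi classical monocytes had 383 (261 UMIs; 2.40-fold, 1.92 to 3.03), the Arg1 or Gpnmb cells 370.1 (155 UMIs; 2.48-fold, 1.91 to 3.25) and neutrophils 359 (273 UMIs; 1.82-fold, 1.25 to 2.75). The neutrophil ratio fell to 1.42 without mitochondrial UMIs (0.973 to 2.15) and to 1.40 in cells with at most 20% of them (0.869 to 2.40), intervals that hold 1. These 3 classes, neighbours in the order at 7 dpi, did not differ beyond counting error, with ratios of 1.03 (0.845 to 1.27) and 1.03 (0.841 to 1.26), and neutrophils did not differ from all other cells of the library (1.04, 0.902 to 1.19). Ungated cells were 3.36-fold their control level (2.85 to 3.97).

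Kupffer cells had 233 CPM of Csf2ra at 7 dpi (31 UMIs), 1.71-fold the control (1.14 to 2.51). The direction turned to 0.677 (0.181 to 1.78) when barcodes with 2 or more markers of a second class were left out, and was 1.50 (0.994 to 2.19) without mitochondrial UMIs. At 1 dpi Kupffer cells stood at 111, 0.811 of the control (0.665 to 0.989), and 0.834 to 0.907 with intervals that hold 1 under 4 alternatives. The 25 neutrophils at 1 dpi had no Csf2ra UMI, where the floor of 3 counts is 195 CPM. T cells, taken as a class that should lack the chain, had 14.1, 27.8 and 104 CPM on 4, 2 and 3 UMIs.

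Csf2rb stood at 186 in control Kupffer cells (293 UMIs), 72.2 at 1 dpi (128 UMIs) and 105 at 7 dpi (14 UMIs). The 1 dpi level was 0.389 of the control (0.313 to 0.480) and the 7 dpi level 0.568 (0.307 to 0.968), or 0.300 without barcodes that held 2 markers of a second class (0.0360 to 1.11, on fewer cells). Under that and 3 other alternatives, which gave 0.576 to 0.760, the 7 dpi interval held 1. Other myeloid classes stood higher at 7 dpi. Neutrophils went from 249 (38 UMIs) to 379 (288 UMIs), 1.52-fold (1.08 to 2.19). Classical monocytes went from 194 (133 UMIs) to 292 (199 UMIs), 1.50-fold (1.20 to 1.89), and the Arg1 or Gpnmb cells from 123 (77 UMIs) to 201 (84 UMIs), 1.63-fold (1.18 to 2.24). Without mitochondrial UMIs the intervals held 1 for neutrophils (1.18, 0.842 to 1.71) and classical monocytes (1.20, 0.962 to 1.51). For the Arg1 or Gpnmb cells they did so in cells with at least 400 genes (1.37, 0.880 to 2.09) and with S100a8 and S100a9 as neutrophil markers (1.38, 0.858 to 2.16). At 7 dpi the order of neutrophils, classical monocytes, Arg1 or Gpnmb cells and Kupffer cells was resolved at each step, with ratios of 1.30, 1.46 and 1.90 between neighbours and lower bounds of 1.08, 1.12 and 1.07.

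The highest Csf2rb of any control class with 20 cells or more was in mature dendritic cells, which carry Ccr7 and Ccl22, at 467 CPM (21 UMIs in 52 cells; 289 to 714), 1.87-fold the neutrophils (1.04 to 3.27). At 7 dpi 13 such cells held 9 UMIs. Basophils and mast cells, whose growth factor interleukin 3 signals through this chain, had 6 UMIs in 13 control cells. T cells had 7.03 CPM in the control, 27.8 at 1 dpi and 104 at 7 dpi, on 2, 2 and 3 UMIs. At 7 dpi Kupffer cells did not differ from T cells beyond counting error (1.02, 0.283 to 5.51).

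Csf3r stood higher in neutrophils than in the other cells of every library, though at 1 dpi neutrophils held only 4 of its 166 UMIs. Neutrophils had 630.3 CPM in the control (96 UMIs; 511 to 770), 260 at 1 dpi (4 UMIs in 25 cells) and 664 at 7 dpi (505 UMIs; 607 to 725). Control and 7 dpi neutrophils did not differ beyond counting error (1.05, 0.845 to 1.32). The ratio was 0.821 without mitochondrial UMIs (0.659 to 1.03), but 1.39 with S100a8 and S100a9 among the markers (1.16 to 1.67) and 1.64 in cells with at most 20% mitochondrial UMIs (1.13 to 2.48), where 7 dpi neutrophils were higher. Neutrophils were 11.7-fold above other cells in the control and 3.02-fold at 7 dpi, with the other cells at 53.9 CPM in the control and 219.7 at 7 dpi.

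In the 4 other classes that could be compared Csf3r was higher at 7 dpi than in the control. Classical monocytes went from 114 to 195 (1.71-fold, 1.28 to 2.29), Kupffer cells from 51.3 to 173 (3.38-fold, 2.03 to 5.42), the Arg1 or Gpnmb cells from 51.3 to 191 (3.72-fold, 2.44 to 5.80) and endothelial cells from 39.1 to 344 (14 UMIs in 68 cells; 8.81-fold, 4.41 to 16.6). T cells, which should lack it, had 21.1 in the control and 138 at 7 dpi on 4 UMIs. The 9 neutrophil markers, of which 6 or 7 were detected in each of these classes at 7 dpi, moved in the same way. Their summed share of UMIs went from 0.0357% to 0.249% in classical monocytes, from 0.0231% to 0.242% in Kupffer cells, from 0.0232% to 0.191% in the Arg1 or Gpnmb cells and from 0.0307% to 0.192% in endothelial cells, against 2.28% and 2.01% in neutrophils themselves. Their part in the higher Csf3r of these classes was not tested.

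Flt3 was concentrated in cDC1, the dendritic cells that carry Xcr1 and Clec9a. Their level was 140 CPM in the control (33 UMIs in 260 cells), 238 at 1 dpi (18 UMIs in 91 cells) and 426 at 7 dpi (5 UMIs in 20 cells). The ratios to control of 1.70 (0.903 to 3.11) and 3.05 (0.928 to 7.85) have intervals that hold 1. cDC1 were 14.5, 24.8 and 81.1 times the level of the other cells. Mature dendritic cells had 66.7 in the control on 3 UMIs, and the 500 control and 740 7 dpi cells with Arg1 or Gpnmb markers had none. Ungated cells, which held 48.1% of control Flt3 UMIs, went from 21.2 to 9.68 CPM (0.457, 0.198 to 0.936).

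How far the mixture of classes alone would move each library level was computed by giving every class its control level and the UMI share it had in the other library. For 7 dpi this gave 21.9 CPM for Csf1 against 90.2 measured. The values were 146 against 349 for Csf2ra, 164 against 274 for Csf2rb and 212 against 330.2 for Csf3r. Measured levels of these 4 were above the class mixture, and the Csf1 mixture value was below the control level of 33.2. The mixture values carry no interval for the counting error of the control class levels. That of Csf1 gave neutrophils, with 24.9% of the 7 dpi UMIs, a control level resting on 4 UMIs (26.3 CPM, 7.16 to 67.2). For Csf1r the mixture gave 252 against 224 measured, and for Flt3 12.1 against 6.87. For 1 dpi the mixture gave 41.4 for Csf1, within the interval of the 42.1 measured (37.1 to 47.5). It lay outside the measured interval for the others, with 327 against 380.2 for Csf1r, 78.5 against 67.8 for Csf2ra, 98.7 against 48.3 for Csf2rb, 46.7 against 27.2 for Csf3r and 8.93 against 12.4 for Flt3. The ungated cells entered as 1 class, so changes in their makeup count as changes in level.

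**Figure D5:**
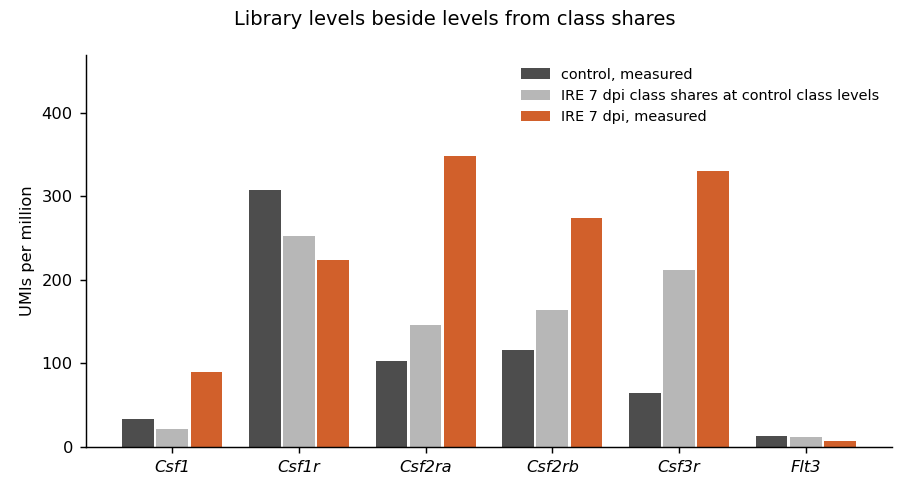
Bars give, for each gene in CPM on an axis from 0, the measured control level, the level from IRE 7 dpi class shares at control class levels, and the measured IRE 7 dpi level. At 7 dpi the measured Csf1, Csf2ra, Csf2rb and Csf3r bars (90.2, 349, 274 and 330.2) exceed the mixture bars (21.9, 146, 164 and 212).

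Receptors and ligand were seldom caught in the same cell at this depth. Of the 109 neutrophils with a Csf1 UMI at 7 dpi, 36 (33.0%) also had a Csf3r UMI, against 25.2% of the other neutrophils. Of the 233 neutrophils with a Csf2ra UMI, 45 (19.3%) had a Csf2rb UMI against 15.6% of the others. In control Kupffer cells 127 of 788 cells with a Csf1r UMI (16.1%) had Csf2ra, against 7.52% of those without. Deeper cells catch more of every transcript, so these shares do not measure pairing.

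The genes whose levels ran most like each member were taken over 33 sums of a class in a library, among 7919 genes. Pearson correlations of log2 values were highest for Csf1 with Id1 (0.767), P4ha1 (0.739) and Samd4b (0.727), and for Csf1r with Pla2g15 (0.780), Clec4a1 (0.770) and Ly86 (0.762). Csf2ra ran with Tpd52 (0.882), Rgs2 (0.872) and Sat1 (0.871), Csf2rb with Ncf1 (0.926), Pirb (0.877) and Spi1 (0.827), and Csf3r with Ifitm1 (0.917), S100a9 (0.877) and Slfn4 (0.874). Flt3 ran with Cst3 (0.832), Tnni2 (0.793) and the MHC class II gene H2-Ab1 (0.776). The 33 points share 3 libraries and their depths, and these values describe likeness only.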

How the data were processed

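Single-cell RNA-seq libraries of 3 groups were analysed, control, IRE 1 dpi and IRE 7 dpi, 1 library each and no replicate. Per the file headers, the authors deposited raw UMI counts per gene and barcode from the DigitalExpression program of the Drop-seq tools, merging UMIs within 1 mismatch, with a read quality of at least 10, from sense-strand reads in coding and untranslated exons. The header names a minimum of 200 genes per barcode, yet barcodes under it were in the matrices and were set aside. The submitters' processing notes name STAR 2.5.2a and the build hg19, a human build, so no coordinate was taken from the files.

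Counts were summed over cells and given per 1000000 UMIs (CPM), with exact Poisson intervals, exact binomial intervals for shares and conditional binomial intervals for ratios, all at 95%. A gene at 0 was set to 3 counts for a bound. Depth was 8013800, 6107866 and 3058967 UMIs in cells. A cell was a hepatocyte if hepatocyte markers took at least 10% of its UMIs, and otherwise joined the class with the most distinct markers, at least 2, ties staying ungated. Of 54 genes set aside to check the gates, 51 were counted as at least 2-fold higher in their class than in other cells. Il6, a check gene of basophils and mast cells, was counted only through the floor of 3 counts, as it had 0 UMIs in that class. In addition, 2 listed B cell markers were not found. No doublet caller was run; an alternative left out barcodes with 2 markers of a second class. Ratios within a class needed 20 cells in each library and 20 UMIs together.

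The 6 members and the pathway list were named throughout, along with pathway genes past 2-fold (1 is not reported here), the other ligands and receptors with most UMIs, and the 3 genes most like each member by correlation of log2 of CPM plus 10. The members and lists were chosen with earlier results of these data known. The sorting by neutrophil markers and the alternative without shared barcodes were added after seeing the data. The neutrophil splits by Ifit, granule and chemokine genes were also chosen with values known. Python 3.11.15, NumPy 2.4.6, SciPy 1.17.1, pandas 2.3.3 and matplotlib 3.10.9 were used, and the steps were tested on simulated data.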

Additional observations from a re-analysis of the deposited data

Results flagged for a closer look

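Csf2rb moved in opposite directions in 2 macrophage classes between control and IRE 7 dpi. It was 1.63-fold in the cells with Arg1 or Gpnmb markers (1.18 to 2.24) and 0.568-fold in Kupffer cells (0.307 to 0.968). Under 2 alternatives for the first and 4 for the second the interval held 1. The difference between these ratios was not tested, and there is 1 library in each group.

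Barcodes with fewer than 200 detected genes, which were not counted as cells, numbered 5318, 8908 and 6842 and also carried the members. Their Csf1 level at 7 dpi was 209 CPM (318 UMIs) against 30.7 in the control (62 UMIs), 6.81-fold (5.17 to 9.09). Csf2ra was 5.17-fold the control there (4.24 to 6.34), Csf2rb 5.06-fold (4.23 to 6.08) and Csf3r 5.37-fold (4.69 to 6.16). Csf1r was 2.06-fold the control at 1 dpi (1.78 to 2.39). At 7 dpi 2904 of these barcodes (42.4%) passed the neutrophil gate, with Csf1 at 211 (147 UMIs) and Csf3r at 883 CPM. The 3238 that stayed ungated had Csf1 at 234 (158 UMIs) and Csf3r at 614 CPM. In the 7 dpi neutrophils with at least 200 genes Csf1 stood at 172 CPM. S100a8, a neutrophil calprotectin gene, stood at 44662 CPM in all 7 dpi barcodes under 200 genes against 19867 in the cells of that library. Whether the barcodes under 200 genes are neutrophils of low RNA content or free RNA was not tested.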

How the results depend on the processing

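With 1 library per group, animals and library preparation cannot be told apart from the condition, and members with few UMIs in a class have wide intervals. No paired analysis was possible because there is 1 library per condition. Of 132 library values recomputed under alternatives (member ratios and counts of genes), 96 kept to their counting interval or to within 1.5 times the count, 36 did not, and 0 reversed. The causes were not tested. Every deposited barcode gave Csf1 at 3.97 (7 dpi to control) and 3.17 (7 dpi to 1 dpi), Csf1r at 0.538 (7 dpi to 1 dpi), Csf2rb at 2.89 and 6.94, and Csf3r at 5.81 and 17.3, with 0.337 for 1 dpi to control. Cells with at least 400 genes gave Csf1 2.11, Csf2rb 1.93 and Csf3r 4.25 (7 dpi to control), Csf2rb 4.87 and Csf3r 9.85 (7 dpi to 1 dpi), and Csf1r 1.13 (1 dpi to control). Cells with at most 20% mitochondrial UMIs gave Csf1r 0.607, Csf2ra 3.03 and Csf2rb 2.05 (7 dpi to control) and Csf1 2.71, Csf1r 0.486 and Csf2ra 4.47 (7 dpi to 1 dpi). Leaving mitochondrial UMIs out of the totals moved every log2 ratio of 7 dpi to control by -0.27 and gave Csf1 2.25, Csf1r 0.604, Csf2ra 2.82, Csf2rb 1.96 and Csf3r 4.22. The same step gave, for 7 dpi to 1 dpi, Csf1 1.75, Csf1r 0.481, Csf2ra 4.20, Csf2rb 4.63 and Csf3r 9.91. Median-of-ratios size factors gave Csf1r 1.31 (1 dpi to control) and 0.528 (7 dpi to 1 dpi), and leaving out shared barcodes, added after seeing the data, gave 0.541 for the latter. With a minimum of 200 UMIs the genes at least 2-fold apart numbered 1084, 1487 and 2077 in place of 2055, 3124 and 4043, fewer genes being tested. Ratios within classes stayed within their interval in 701 cases, moved in 80 and reversed in 1, Csf2ra in Kupffer cells at 7 dpi, which went to 0.677 without barcodes holding 2 markers of a second class.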
